A study of Sus scrofa with 22 samples.

Results

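Apolipoproteins are the protein coat of the lipoprotein particles that carry fat through lymph and blood. The genes described here are those whose array probes mapped to a pig symbol beginning with APOA, APOB, APOC or APOE, leaving out the APOBEC genes and APOBR. RefSeq lists 9 such pig genes, and 6 of them had probes: APOA1, APOA2, APOA4, APOA5, APOC3 and APOE. They make up 6 of the 24761 gene symbols or array identifiers that were tested. No probe was matched to APOB, APOC2 or APOC4, which were not analysed here.

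Enterocytes of the small intestine absorb fatty acids from milk, rebuild them into triglyceride and export them in chylomicrons, particles built on apolipoprotein B. Apolipoproteins A-I and A-IV join these particles in the enterocyte, and A-I also forms high-density lipoprotein. Apolipoproteins C-III and A-V act in opposite directions on the removal of triglyceride by lipoprotein lipase, and apolipoprotein E is the ligand by which liver receptors take up the remnants. In many mammals APOA2 and APOA5 are mainly liver genes, and macrophages are among the cells that make APOE. In the pig gene order of RefSeq, APOA5, a long non-coding RNA, APOA4, APOC3 and APOA1 follow one another. APOE lies beside APOC4 and APOC2.

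RNA came from the small intestine of 22 crossbred SPF piglets (Large White × Danish Landrace), labelled as 3 days old, which had suckled their mother before delivery to the research facility. In one experiment 6 piglets were given doxorubicin (DOX), a topoisomerase II inhibitor, as 1 dose, and 6 were untreated. In the other, 5 piglets received busulfan plus cyclophosphamide (BUCY), a pair of alkylating drugs, and 5 were untreated. Both treatments were given into the jugular vein, after surgery under anaesthesia to fit the catheter and orogastric tubes. The labels used here state no drug amount, time of sampling, litter or part of the small intestine. Whatever differed between the experiments in these respects cannot be told apart from the difference between their untreated groups.

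Each array compared the RNA of 1 piglet (Cy5) with a pool of all samples (Cy3). Values below are log2 ratios to that pool, so 0 is the pool's level and 1 is a doubling, and they show how piglets differ in a gene but not how genes differ in amount. Between 59.7% and 72.5% of probes per array were well above background, and 0 spots were saturated. BUCY treated arrays 2 and 3 stood apart from the other arrays on the second principal component, which held 25.7% of the variance, and array 3 also had the lowest share of probes above background. Most limma results after BUCY that rest on these 2 arrays are given with and without them, and correlations over all arrays only with them. A lower ratio in whole tissue can come from fewer cells of a type or from less RNA per cell, which cannot be told apart here.

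All 6 genes were measurable in every piglet, with the brightest probe of each well above background on all 22 arrays. Median Cy5 intensity ran from 16566 to 410455 over the piglets for the APOA1 probe, from 25310.5 to 490902 for APOA4 and from 6434.5 to 306033 for APOC3. It ran from 1610.5 to 41683.5 for APOA2, from 280 to 939 for APOA5 and from 128 to 1345.5 for APOE. A second probe gave nearly the same piglet-to-piglet pattern for APOA1 (r = 0.998 over 22 arrays) and APOC3 (r = 0.993), and a similar one for APOA4 (r = 0.836). For APOA5 the other probe was well above background on only 9 arrays, and the 2 probes had r = 0.245, so APOA5 rests on 1 probe of low signal.

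**Figure D1:**
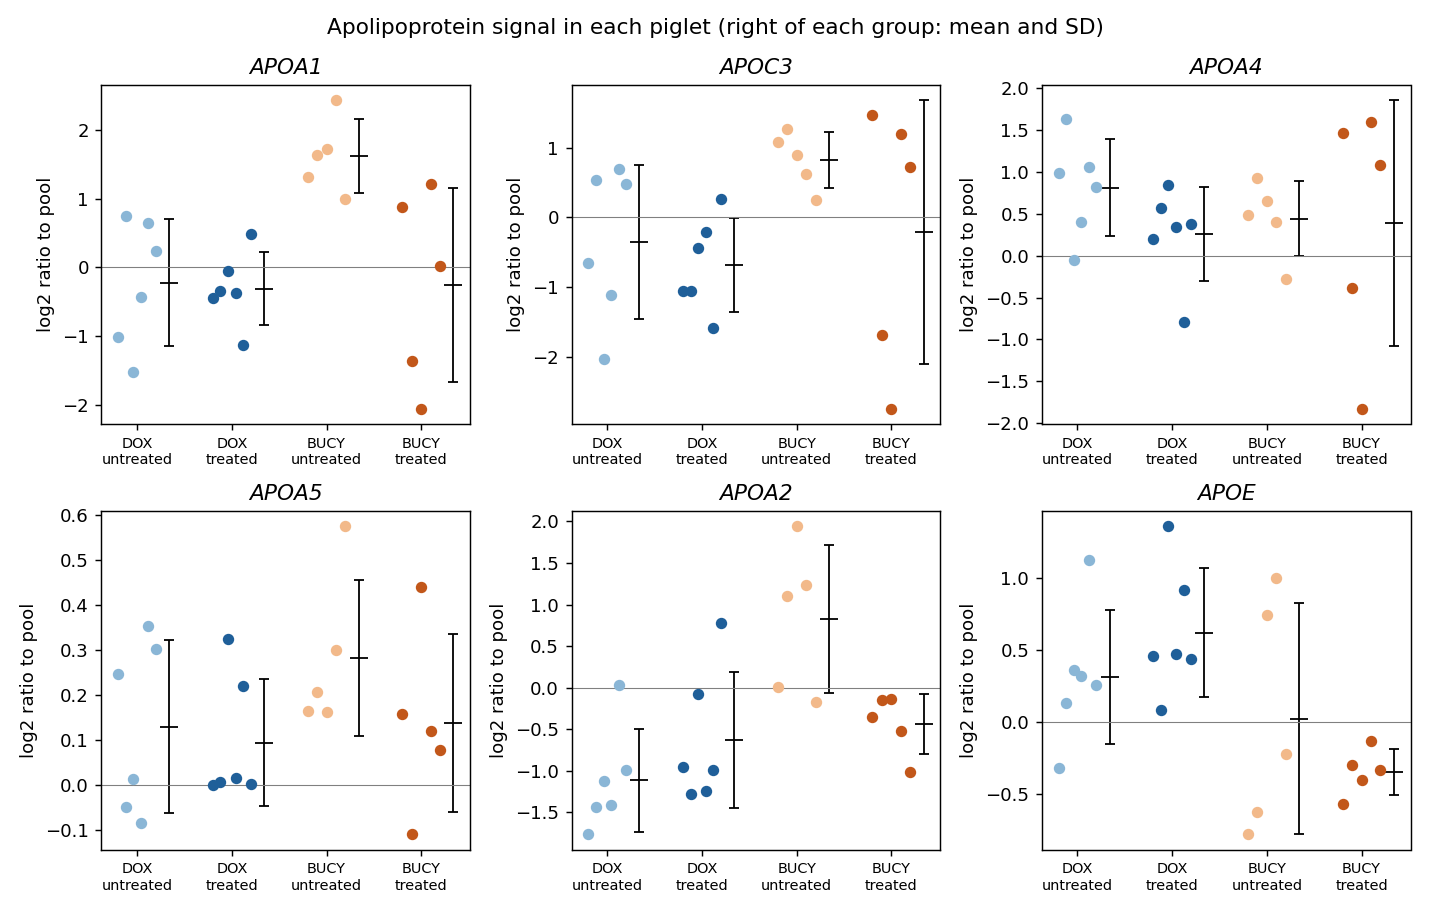
Log2 ratio to the pool (vertical axis) of the 6 apolipoprotein genes in the 4 groups, with each point 1 piglet. The BUCY untreated piglets lie above all DOX untreated piglets in APOA1, while APOA5 varies little in any group.

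APOA1 encodes the main protein of high-density lipoprotein and is made in quantity by enterocytes. In the BUCY untreated piglets its log2 ratios were 1.31, 1.63, 1.72, 2.42 and 1.0. In the BUCY treated piglets they were 0.87, -1.36, -2.05, 1.21 and 0.03. The treated piglets therefore spread widely, with arrays 2 and 3 far down and array 4 inside the untreated range, so the groups overlapped. In the DOX untreated piglets the ratios ran from -1.52 to 0.74 with a median of -0.10, and in the DOX treated piglets from -1.12 to 0.48 with a median of -0.35. The DOX groups overlapped nearly throughout, and all DOX piglets lay below the lowest BUCY untreated piglet.

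APOA4 encodes an apolipoprotein that enterocytes release with chylomicrons during fat absorption. Its log2 ratios were 0.49, 0.93, 0.65, 0.40 and -0.27 in the BUCY untreated piglets. In the BUCY treated piglets they were 1.46, -0.39, -1.83, 1.60 and 1.08. On this probe treated piglets 1, 4 and 5 thus lay above every untreated piglet of their experiment, and treated piglets 2 and 3 below all of them. On the other APOA4 probe treated piglet 1 (0.56) lay below untreated piglet 4 (0.78), and the rest of this pattern was the same. The DOX untreated piglets ran from -0.05 to 1.63 with a median of 0.91, and the DOX treated piglets from -0.79 to 0.85 with a median of 0.36. These groups overlapped.

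APOC3 encodes an inhibitor of lipoprotein lipase and of remnant uptake. Its log2 ratios were 1.09, 1.27, 0.89, 0.62 and 0.26 in the BUCY untreated piglets. In the BUCY treated piglets they were 1.47, -1.69, -2.75, 1.20 and 0.72, so arrays 2 and 3 again lay far below the other treated piglets, which stood within or above the untreated range. The DOX untreated piglets ran from -2.03 to 0.70 with a median of -0.09, and the DOX treated piglets from -1.59 to 0.27 with a median of -0.74. The DOX groups overlapped.

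APOA2 encodes the second protein of high-density lipoprotein. Its log2 ratios were 0.01, 1.10, 1.94, 1.24 and -0.17 in the BUCY untreated piglets. In the BUCY treated piglets they were -0.35, -0.15, -0.13, -0.52 and -1.02. Here arrays 2 and 3 were the highest of the treated group, unlike in APOA1, APOA4 and APOC3, and they alone reached the lower end of the untreated range. The DOX untreated piglets ran from -1.76 to 0.03 with a median of -1.26, and the DOX treated piglets from -1.28 to 0.77 with a median of -0.97. The highest DOX untreated piglet overlapped the 2 lowest BUCY untreated piglets.

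APOA5 encodes an activator of triglyceride removal by lipoprotein lipase. Over all 22 piglets its log2 ratios stayed close to the pool, with group means of 0.13 ± 0.19 (SD, n = 6) in DOX untreated, 0.09 ± 0.14 (n = 6) in DOX treated, 0.28 ± 0.17 (n = 5) in BUCY untreated and 0.14 ± 0.20 (n = 5) in BUCY treated piglets. The order of these means is not separated by their spread.

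APOE encodes the ligand of the remnant receptors. Its log2 ratios were -0.77, -0.62, 0.75, 1.0 and -0.22 in the BUCY untreated piglets. They were -0.57, -0.30, -0.40, -0.13 and -0.33 in the BUCY treated piglets, a narrow range that lay inside the wide untreated one. The DOX untreated piglets ran from -0.32 to 1.13 with a median of 0.29, and the DOX treated piglets from 0.08 to 1.36 with a median of 0.47. All DOX treated piglets lay above all BUCY treated piglets, but these groups come from separate experiments. This pair was not tested, and the share of all genes separated in this way is not given.

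The untreated comparison asks how the controls of the experiments differed before any drug is considered. APOA1 averaged 1.62 ± 0.53 (SD, n = 5) in BUCY untreated and -0.22 ± 0.92 (n = 6) in DOX untreated piglets. That is 3.58-fold higher in the BUCY controls, a log2 difference of 1.84 (SE 0.504, 95% interval 0.79 to 2.88, limma adjusted p = 0.00979), and the groups did not overlap. Such separation was seen for 8.92% of all genes tested with the BUCY controls higher and for 9.02% with them lower. APOA2 averaged 0.82 ± 0.89 and -1.11 ± 0.62 in the same groups, 3.83-fold higher in the BUCY controls (log2 1.94, SE 0.394, 95% interval 1.12 to 2.76, limma adjusted p = 9.28e-04). Thus 2 of 6 apolipoprotein genes were higher and 0 lower, with groups that did not overlap for APOA1 alone, where 13% of all genes tested were higher and 12.2% lower (25.2% in either direction).

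The other 4 genes did not pass the test between the untreated groups. APOC3 had a log2 difference of 1.17 (95% interval -0.15 to 2.49, limma adjusted p = 0.194), an interval that holds both no difference and one as large as that of APOA1. APOA4 had -0.37 (SE 0.468, adjusted p = 0.633), APOA5 0.15 (SE 0.108, adjusted p = 0.345) and APOE -0.29 (SE 0.290, adjusted p = 0.53). The median over the 6 genes was 0.66, beside 0.03 over all genes tested. With slide as a fixed block the APOA1 difference was 1.75 with a limma adjusted p of 0.0618. The 2 slides that held both untreated groups gave 0.56 (1 BUCY and 2 DOX arrays) and 2.99 (2 BUCY arrays and 1 DOX array). For APOA2 these slides gave 0.31 and 1.68.

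The BUCY comparison asks how treated piglets differed from the untreated piglets of the same experiment, which also serve in the comparison above, so these results are not independent. APOA1 averaged -0.26 ± 1.41 (SD, n = 5) in treated piglets, 3.67-fold lower than in untreated ones (log2 -1.88, SE 0.526, 95% interval -2.97 to -0.78, limma adjusted p = 0.0184). APOA2 averaged -0.43 ± 0.36, 2.39-fold lower (log2 -1.26, SE 0.411, 95% interval -2.11 to -0.40, limma adjusted p = 0.0394). For both genes 5 of 5 treated piglets lay below the untreated mean. Thus 2 of 6 genes were lower and 0 higher, where 9.05% of all genes tested were lower and 8.23% higher (17.3% in either direction). The treated and untreated groups were fully separated in 0 of 6 genes, against 3.34% of all genes tested with treated piglets lower and 3.22% with them higher.

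Both calls depended on single libraries. Without BUCY treated array 2 the APOA1 change was -1.60 (limma adjusted p = 0.0669), without array 3 it was -1.43 (adjusted p = 0.0654), and without both it was -0.91 (adjusted p = 0.313). The APOA2 call was lost when BUCY treated array 2, 3, 4 or 5 or BUCY untreated array 2, 3 or 4 was left out, with adjusted p from 0.059 to 0.112. Without treated arrays 2 and 3 together the APOA2 change was -1.45, larger than with them, at an adjusted p of 0.101 from 3 treated piglets. With slide as a fixed block the APOA1 change was -1.87 (limma adjusted p = 0.0764). Within the 3 slides that held both BUCY groups it ran from -2.84 to -0.84, as that of APOA2 ran from -2.30 to -0.85. Each of these slides held only 1 untreated and 1 or 2 treated arrays of this experiment.

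APOC3, APOA4, APOA5 and APOE did not pass the test after BUCY. APOC3 had a log2 change of -1.03 (95% interval -2.41 to 0.34, limma adjusted p = 0.293), and 0.30 (adjusted p = 0.85) without arrays 2 and 3. APOA4 had -0.05 (95% interval -1.07 to 0.96, adjusted p = 0.957), and 0.94 (adjusted p = 0.132) without them. The near-zero mean change of APOA4 was therefore an average over 3 piglets that were high and 2 that were low. APOA5 had -0.14 (95% interval -0.38 to 0.09, adjusted p = 0.4) and APOE -0.37 (95% interval -1.0 to 0.26, adjusted p = 0.421). The median over the 6 genes was -0.70, beside -0.0012 over all genes tested.

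**Figure D2:**
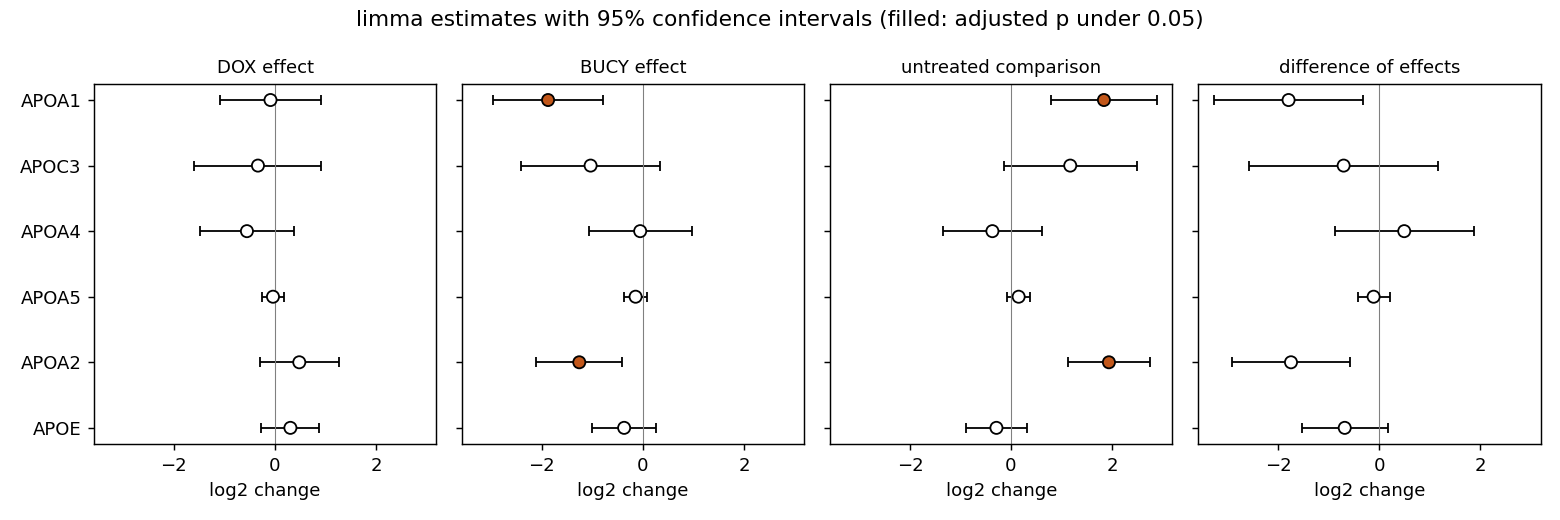
Log2 difference of the 6 apolipoprotein genes in each comparison, with bars for the 95% interval from limma. APOA1 and APOA2 are the genes past the threshold, lower after BUCY and higher in the BUCY untreated than in the DOX untreated piglets.

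After DOX 0 of 6 apolipoprotein genes passed the limma test in either direction, and 0 had an unadjusted p under 0.05, where 0.848% of all genes tested passed (0.368% higher and 0.481% lower). The DOX groups were fully separated in 0 of 6 genes, against 1.22% of all genes tested with treated piglets higher and 1.39% with them lower. The log2 changes were -0.08 for APOA1 (95% interval -1.08 to 0.91), 0.48 for APOA2 (-0.30 to 1.26) and -0.55 for APOA4 (-1.48 to 0.38). They were -0.04 for APOA5 (-0.25 to 0.18), -0.33 for APOC3 (-1.59 to 0.92) and 0.31 for APOE (-0.27 to 0.88). The adjusted p-values ran from 0.593 to 0.958. The intervals of APOA1, APOA4 and APOC3 are the widest and leave room for sizeable changes at this spread between piglets, whereas that of APOA5 is narrow.

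Whether the drugs differed was tested as the BUCY change minus the DOX change. In limma 0 of 6 genes passed, 2 had an unadjusted p under 0.05, and 5.88% of all genes tested passed (3.14% higher and 2.73% lower). The difference was -1.79 for APOA1 (SE 0.712, adjusted p = 0.155) and -1.74 for APOA2 (SE 0.557, adjusted p = 0.0684). APOA2 passed, with adjusted p from 0.0353 to 0.0451, when BUCY untreated array 1 or 5 or DOX untreated array 5 was left out. With all piglets in the fit, the changes of APOA1 and APOA2 after BUCY were not shown to differ from those after DOX.

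APOA1, APOA4 and APOC3, 3 of the 4 apolipoprotein genes of the neighbourhood, varied together from piglet to piglet. Over 22 arrays APOA1 and APOC3 had r = 0.89, APOA4 and APOC3 r = 0.77, and APOA1 and APOA4 r = 0.58. After subtracting each group's mean these were 0.91, 0.90 and 0.85. These values include BUCY treated arrays 2 and 3, which were far down in all 3 genes, and none without them are given. Within the DOX experiment alone, with no means subtracted, r was 0.91, 0.73 and 0.68 in the same order. In the BUCY experiment alone it was 0.87, 0.91 and 0.67. With the brightest probes the same piglet was lowest in all 3 genes in 4 of 4 groups: DOX untreated 3, DOX treated 5, BUCY untreated 5 and BUCY treated 3. On the other APOA4 probe this did not hold for the BUCY untreated group, where piglet 3 was lowest (-0.18) and piglet 5 had 0.25. APOA5, the other gene of the neighbourhood, had r of -0.11 with APOA1, -0.27 with APOA4 and -0.07 with APOC3 after the group means were subtracted. APOA2 had r = 0.28 with APOA1 and 0.04 with APOA4. All these values share the pool and the array's normalisation, and are descriptions.

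**Figure D3:**
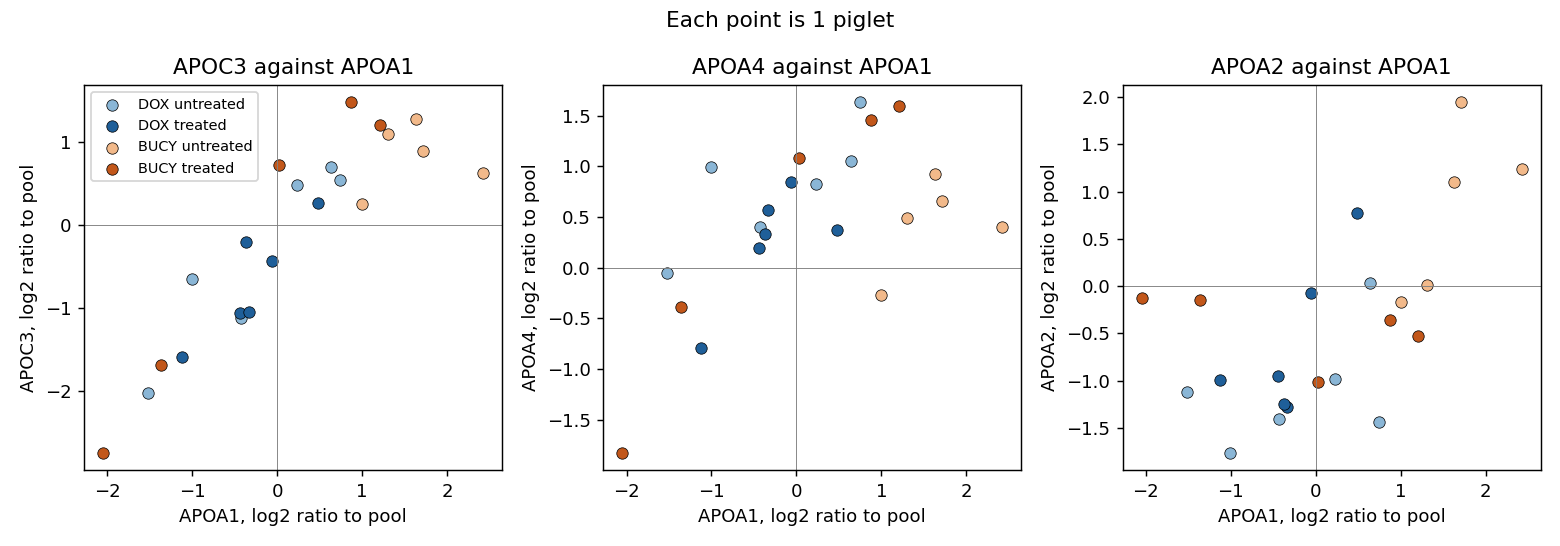
Log2 ratios of pairs of apolipoprotein genes plotted against each other, with each point 1 piglet coloured by group. APOC3 rises with APOA1 (r = 0.89 over 22 arrays), while in the plot of APOA4 against APOA1 the BUCY untreated piglets have lower APOA4 than BUCY treated piglets of like APOA1.

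Relative to the pool, the BUCY untreated piglets held more APOA1 for their APOA4 than the other piglets did. The difference of the log2 ratios, APOA1 minus APOA4, was 1.18 ± 0.52 (SD, n = 5) in BUCY untreated piglets, from 0.70 to 2.02. It ran from -1.06 to -0.22 in BUCY treated, from -0.91 to 0.11 in DOX treated and from -1.99 to -0.41 in DOX untreated piglets. The BUCY untreated piglets thus overlapped none of the other groups. With the brightest APOA4 probe BUCY treated array 3 was the highest of its group in this measure, and array 2 lay between the others. With the other APOA4 probe array 3 was not the highest. There BUCY treated piglet 1 had a lower ratio for APOA4 (0.56) than for APOA1 (0.87), and array 3 a higher one (-1.90 against -2.05). With the brightest APOA4 probe, APOC3 minus APOA4 was also highest in the BUCY untreated piglets, from 0.22 to 0.60, and at most 0.01 in any other piglet. This separation was lost with the other APOA4 probe. There BUCY untreated piglet 4 had a higher ratio for APOA4 (0.78) than for APOC3 (0.62). BUCY treated piglet 1 had a lower one for APOA4 (0.56) than for APOC3 (1.47). These differences were formed after the values were seen and were not tested.

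Enterocyte markers moved more closely with APOA1, APOC3 and APOA4 than with APOA5, APOA2 or APOE. The mean log2 ratio of 8 markers, among them the brush border peptidases ANPEP and DPP4 and the glucose transporter SLC5A1, ran from 0.18 to 0.67 in BUCY untreated, from -2.56 to 0.33 in BUCY treated, from -0.72 to 0.03 in DOX treated and from -0.64 to 0.03 in DOX untreated piglets. BUCY treated arrays 3 and 2 were the lowest of all. The correlation with this mean over 22 arrays, and after group means, was 0.85 and 0.84 for APOA1, 0.82 and 0.89 for APOC3 and 0.69 and 0.90 for APOA4. It was 0.28 and -0.05 for APOA2, 0.11 and -0.11 for APOA5 and 0.09 and -0.02 for APOE. The marker mean spread most in the BUCY treated piglets (SD 1.29, against 0.19 to 0.27 in the other groups). These correlations include BUCY treated arrays 2 and 3, and no values without them are given. After BUCY 7 of 8 markers were lower in limma, and without arrays 2 and 3 0 were lower and 1, RBP2, was higher. Between the untreated groups 3 of 8 were higher in the BUCY controls. The part of enterocyte content in the APOA1 differences was not tested.

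**Figure D4:**
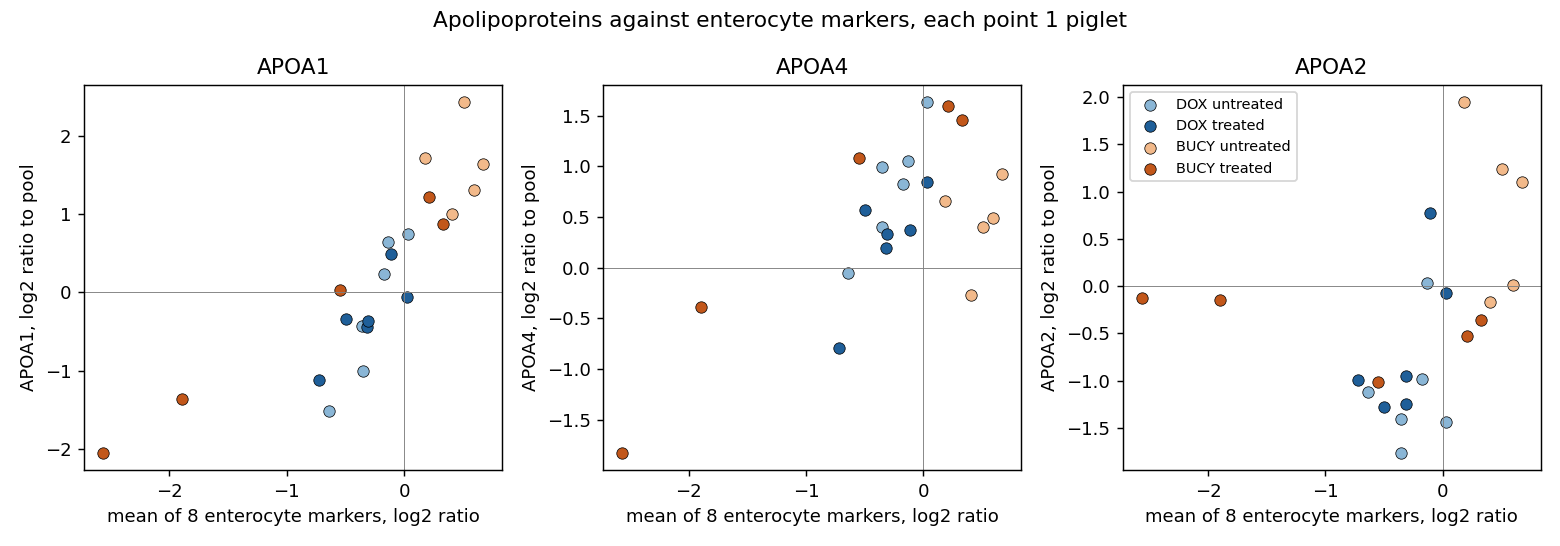
Log2 ratio of APOA1, APOA4 and APOA2 (vertical axes) against the mean log2 ratio of 8 enterocyte markers (horizontal axis), with each point 1 piglet. APOA1 and APOA4 rise with the marker mean, and BUCY treated arrays 2 and 3, at the far left, are low in APOA1 and APOA4 but not in APOA2.

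Markers of other cells and of gut position also differed. SLC10A2, the ileal bile acid transporter, was lower in the BUCY than in the DOX controls by a log2 difference of -1.90 (limma adjusted p = 3.43e-06), FABP6, the ileal bile acid binding protein, by -2.21 (adjusted p = 0.0181), and GUCA2B, uroguanylin, was higher by 1.26 (adjusted p = 0.00762). All 5 markers of cycling crypt cells were lower in the BUCY controls, and 4 of 5 were higher after BUCY. Without BUCY treated arrays 2 and 3, only CCNB1 (limma adjusted p = 0.00133) and BIRC5 (adjusted p = 2.48e-04) were higher. AURKA, CDC20 and TOP2A then had adjusted p from 0.0528 to 0.181. The mean of the 5 crypt markers had r = -0.83 with APOA2 and -0.76 with APOA1 over 22 arrays, and -0.56 and -0.59 after group means. With the other genes r over 22 arrays was -0.49 for APOC3, -0.29 for APOA5, -0.0017 for APOA4 and 0.09 for APOE. After group means it was -0.31, 0.09, -0.26 and -0.32. Of the hepatocyte markers FGG and CYP7A1 were well above background on 0 arrays, TTR on 1, AFP on 4, AMBP on 5, ALB on 13, TF on 21 and SERPINA1 and HP on 22. HP, haptoglobin, was higher after BUCY by 1.56 (adjusted p = 0.0186), and the other 4 hepatocyte markers tested did not pass in any comparison. Of 9 macrophage markers 3 were higher after DOX, 3 higher and 1 lower after BUCY, and 4 lower in the BUCY controls. Without BUCY treated arrays 2 and 3, only CD163 (limma adjusted p = 0.00108) and CD14 (adjusted p = 0.0488) of these passed after BUCY, both as higher. Of 7 T cell markers 3 were lower after DOX, 6 after BUCY and 2 in the BUCY controls. The mean of the macrophage markers had r = 0.49 with APOE over 22 arrays and 0.06 after group means. It had -0.54 and -0.29 with APOA2, and -0.47 and -0.09 with APOA1. The same values with APOE were 0.18 and -0.43 for T cell, 0.42 and -0.20 for goblet and -0.51 and -0.41 for smooth muscle markers. The part of gut position and of these cell types in the apolipoprotein results was not tested.

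Genes with the most similar pattern were ranked by r over 22 arrays among 2614 genes with a symbol. For APOA1 they were SLC7A7 (r = 0.95), an amino acid transporter subunit, ACY1 (0.92), an aminoacylase, and RGN (0.91). For APOA4 they were FABP2 (0.84), the intestinal fatty acid binding protein, RBP2 (0.81), the intestinal retinol binding protein, and ABCD3 (0.80), a peroxisomal transporter. For APOC3 they were DGAT2 (0.89), an enzyme of triglyceride synthesis, ABCG2 (0.87), an efflux transporter, and DHDH (0.87). For APOA2 they were UCP3 (0.89), SLC46A1 (0.85), the intestinal folate transporter, and APOM (0.83), another apolipoprotein. For APOE they were PGA5 (0.83), a pepsinogen, DTNBP1 (0.78) and TIMP2 (0.76), and for APOA5 SLC22A4 (0.79), KLF13 (0.78) and RHOG (0.74).

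The rest of the fat export pathway was described by 7 lists with 74 tested genes. After BUCY 7 of them were higher and 9 lower in limma, and between the untreated groups 9 were higher in the BUCY controls and 15 lower. Over all genes tested the shares were 8.23% higher and 9.05% lower after BUCY, and 13% higher and 12.2% lower between the untreated groups, so the counts other than the 15 lie near the background. After DOX 0 were higher and 1 was lower, with 8 at an unadjusted p under 0.05. In limma the difference between the drug effects passed for 6 of the 74 genes as higher and 4 as lower. Over all genes tested 3.14% passed as higher and 2.73% as lower. Both list counts are larger shares than these, and that excess was not tested.

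Of 10 genes of chylomicron assembly, 3 rose and 1 fell after BUCY, with a list median of -0.04 beside -0.0012 over all genes, and 2 rose and 0 fell without arrays 2 and 3. PLIN2, a coat protein of lipid droplets, rose by 1.47 (log2, adjusted p = 0.00138), without overlap between the groups, and by the same 1.47 (adjusted p = 0.00308) without arrays 2 and 3. SAR1A, a GTPase of the vesicles that leave the endoplasmic reticulum, rose by 0.74 (adjusted p = 0.0146), and SEC23B, a coat protein of those vesicles, by 0.33 (adjusted p = 0.0441, and 0.0676 without arrays 2 and 3). PLA2G12B fell by 0.89 (adjusted p = 0.0156, and 0.231 without them). MTTP, which loads lipid onto apolipoprotein B, had -0.58 (adjusted p = 0.426). In the BUCY controls 3 of these 10 genes, PLIN2 (-1.79), SAR1A (-1.38) and SEC23B (-0.97), were lower than in the DOX controls and 0 higher. The difference between the drug effects passed for SEC23B (0.69), SAR1A (1.11), PLIN2 (1.34) and PLA2G12B (-1.19). After DOX 0 of the 10 passed in limma, with 2 at an unadjusted p under 0.05, and SEC23B had the smallest p (-0.36, adjusted p = 0.0996).

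Of 13 genes of triglyceride synthesis and breakdown, 2 rose after BUCY: LIPE, hormone-sensitive lipase, by 1.0 (adjusted p = 0.00903) and LPIN1, a phosphatidate phosphatase, by 0.48 (adjusted p = 0.0471, and 0.495 without arrays 2 and 3). The list median was -0.08. In the BUCY controls LIPE differed by -1.65 from the DOX controls (adjusted p = 2.68e-05). Of 14 genes of fatty acid uptake and binding 0 passed after BUCY in limma, with 2 at an unadjusted p under 0.05, and ACSL1, an acyl-CoA synthetase, had the smallest p (0.94, adjusted p = 0.0521). FABP1, the liver-type fatty acid binding protein, was higher by 1.67 (adjusted p = 0.00671) once arrays 2 and 3 were left out. Between the untreated groups SLC27A2, a fatty acid transporter, was 2.07 higher in the BUCY controls (adjusted p = 0.00998), and FABP1 (-1.46), FABP6, ACSL4 (-0.59) and GOT2 (-0.54) were lower. After DOX the smallest p-values in these lists were those of LPIN1 (0.32, adjusted p = 0.341) and GOT2 (-0.36, adjusted p = 0.0991), neither past the threshold.

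Of 10 genes of cholesterol and vitamin transport, 4 fell after BUCY with a list median of -0.49: LRAT, which esterifies retinol, by 1.08 (adjusted p = 0.0128), NPC2 by 0.80 (adjusted p = 0.0167), STARD3 by 0.54 (adjusted p = 0.0395), and BCO1, for which no size is given because it was well above background on only 7 of 22 arrays. Without arrays 2 and 3, 1 gene was lower, SCARB1, a high-density lipoprotein receptor (-0.87, adjusted p = 0.0198), and 1 was higher, RBP2 (0.99, adjusted p = 0.0159). Between the untreated groups 4 of 10 were higher in the BUCY controls, among them SCARB1 by 0.96 (adjusted p = 0.00109), NPC2 by 0.80 and BCO1, with the same limit, and 2 lower. NPC2 also had the smallest p after DOX (0.33, adjusted p = 0.496).

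Of 5 receptors and lipases, LPL, the lipase that C-III inhibits and A-V activates, rose by 1.67 after BUCY (adjusted p = 3.53e-04) and by 1.38 (adjusted p = 0.00599) without arrays 2 and 3. LPL was 6.98-fold lower in the BUCY than in the DOX controls (log2 -2.80, adjusted p = 1.24e-07). LRP8 (-0.56) and VLDLR (-0.53), receptors for APOE, were also lower in the BUCY controls. For LPL the difference between the drug effects was 1.79 (adjusted p = 0.00554). After DOX VLDLR had the smallest p of these genes (-0.37, adjusted p = 0.269).

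Of 17 transcription factors of apolipoprotein genes, 3 fell after BUCY. PPARGC1A, a coactivator of metabolic genes, fell by 1.45 (adjusted p = 6.9e-04) and was the 1 pathway gene to fall after DOX, by 0.96 (adjusted p = 0.0475). It was 1.30 higher in the BUCY controls (adjusted p = 3.77e-04). Between the untreated groups FOXA1 (-0.80) was lower and NR1H3 (0.36) higher in the BUCY controls. GATA6 fell by 0.90 (adjusted p = 0.00214). HNF4A, a regulator of the APOA1 and APOC3 cluster, had 0.11 (adjusted p = 0.733). Of 5 genes of other apolipoproteins and proteins carried on lipoproteins or related to them, PON2, a paraoxonase that stays inside cells, fell by 1.25 (adjusted p = 0.00544, and 0.0904 without arrays 2 and 3) and APOF rose by 0.57 (adjusted p = 0.0104). After DOX APOF had the smallest p of these genes (-0.23, adjusted p = 0.449). APOM was 2.13 higher in the BUCY controls (adjusted p = 0.00893), as APOA1 and APOA2 were, and had -1.45 after BUCY (adjusted p = 0.0978).

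**Figure D5:**
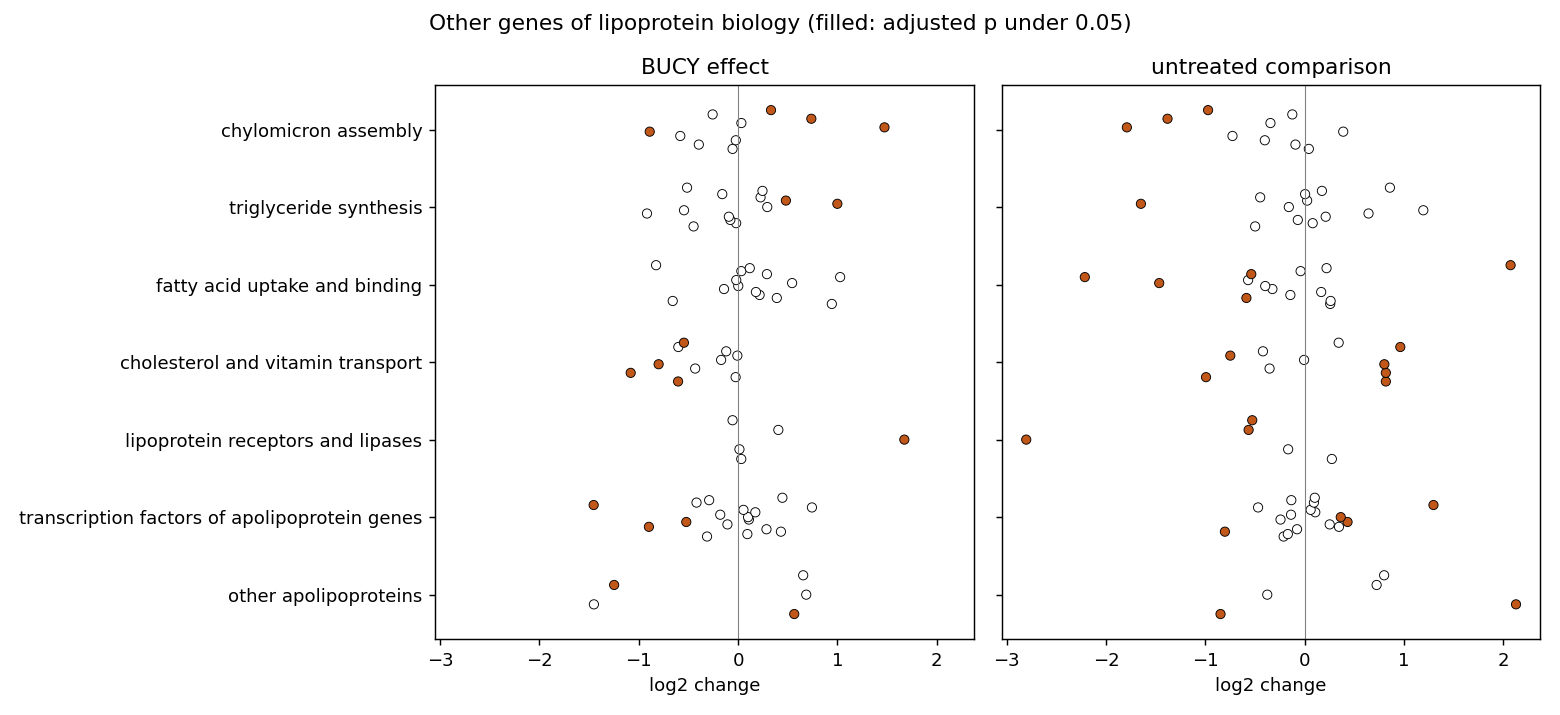
Log2 change (horizontal axis) of the tested genes of 7 lists (vertical axis) after BUCY and between the untreated groups, with each point 1 gene, filled where the adjusted p was under 0.05. The rightmost receptor or lipase after BUCY, LPL at 1.67, is the leftmost between the untreated groups at -2.80.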

How the data were processed

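Small-intestinal RNA of 22 piglets was hybridised to 2-colour arrays, 1 per piglet, on 7 slides with 3 scan days. The deposited files hold median spot and background intensity of both dyes and, per the file headers, a log10 ratio, from Agilent Feature Extraction 10.7.3.1. They held no mean signals, which had been planned, so medians were used. The authors' deposited value table holds log2 ratios and was used as an alternative. It matched normexp, loess and quantile normalised signals with r from 0.995 to 1.00.

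Intensities were corrected by normexp (offset 50) and normalised within arrays by loess in limma 3.58.1 (R 4.3.3). Outlier spots were dropped. Probes were named through RefSeq accessions (6700 of 43603), the brightest probe stood for a gene, and genes well above background on at least 5 arrays were tested. One limma fit of 4 group means gave all comparisons, with Benjamini-Hochberg adjustment over 24761 genes and a threshold of 0.05. Intervals are at 95%. The replicate is the piglet, and array numbers follow deposit order and pair nothing. All members are named. From each list up to 4 genes per comparison were named by smallest adjusted p among those passing, or the gene of smallest p where none passed, with the 3 most similar genes for each member. MTTP, HNF4A, FABP1 and genes called only without BUCY treated arrays 2 and 3 were added after their values were seen. Members and lists were chosen with earlier results of these data known. The number of arrays limits the precision. A few list genes that the rule would name are not reported here.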

Additional observations from a re-analysis of the deposited data

How the results depend on the processing

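No result reversed its direction while called. The count of apolipoprotein genes called after BUCY was 2, and it was 1 with scaling between arrays or without the filter on dim probes. It was 0 with Cy5 alone, without the 6 arrays whose titles carry a suffix, without BUCY treated arrays 2 and 3, with only the groups compared in the fit, and with array weights. Leaving out single arrays gave 0 to 2. The count in the untreated comparison was 2, and it was 1 with median centring, Cy5 alone or slide as a fixed block, where APOA1 had adjusted p of 0.104, 0.101 and 0.0618. Leaving out single arrays gave 2 to 2 there, 0 to 1 for the difference of effects, and 0 to 0 for DOX. Median centring moved the median of all genes after BUCY by -0.125, and APOA5 then passed (-0.50, adjusted p = 0.0291). With slide as a fixed block APOE passed after BUCY (-0.86, adjusted p = 0.0282), and without BUCY treated arrays 2 and 3 APOC3 passed between the untreated groups (1.17, adjusted p = 0.0412). The cause of these changes was not tested. APOA2 passed between the untreated groups under all alternatives run. Normalising the average intensity between arrays leaves ratios unchanged by construction, so quantile normalisation of both dyes was added after the data were seen, as were the list counts without arrays 2 and 3. For the apolipoprotein genes leaving out those arrays was planned, with their standing apart known from earlier results. No paired analysis was possible because array numbers follow deposit order.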
